A study of Mus musculus with 6 samples.

Results

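The enzymes described here are 10 mouse genes that desaturate and elongate fatty acids: the stearoyl-CoA desaturases Scd1 and Scd2, the front-end desaturases Fads1 and Fads2 with their relative Fads3, and the elongases Elovl1, Elovl2, Elovl4, Elovl5 and Elovl6. The array files give an accession for each probe and no gene name, so members were found by matching RefSeq accessions to gene symbols. All 10 genes were found, on 12 of the 55681 probes of the array. Of these genes 9 were bright enough to be tested, among 24225 features tested in all, and Fads3 was not.

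RNA came from adult hippocampal precursor cells, the source of new neurons in the adult dentate gyrus, taken from male C57BL6/JRj mice aged 8 weeks. LDL and saline cultures alike were adherent and held EGF and bFGF at 20 ng/ml. For 48 h, 3 cultures received human LDL, the lipoprotein that carries cholesterol and other lipids in blood, and 3 received saline. The treatment protocol gives the LDL dose as 100 ug/ml, while the sample descriptions give another unit of volume, so the unit is uncertain. The 3 experiments were independent and used different passages of the cells, and each culture was measured on 1 array with 1 colour. Each value below is a probe's log2 signal minus the log2 of its array's 75th percentile, so 0 means a signal equal to that percentile. Values of different probes are not on a shared scale, and levels are compared only within a probe.

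The share of probes well above background ran from 55.9% on saline replicate 2 to 66.9% on saline replicate 3. Of 10 precursor markers 9 were above background on all 6 arrays, among them Nes, Sox2 and Vim, and Prom1 on 4 of the 6. Of 7 neuron markers, Dcx, Neurod1 and Stmn2, which mark young neurons, were above background on no array. The other 4, Tubb3, Rbfox3, Map2 and Syp, were above it on all 6. So were all 8 oligodendrocyte markers, all 6 astrocyte markers and 4 of 6 microglia markers. Of 6 astrocyte markers, Gfap rose with LDL (log2 fold change 1.35, adjusted p = 0.0225 in limma) and the other 5 had negative values that did not pass. Their summed linear level ran from 97.4 to 111.9 times the 75th percentile with LDL and from 116.8 to 141.1 with saline, but 96.8% to 97.8% of it on each array was the single gene Aldoc (log2 fold change -0.24, adjusted p = 0.739 in limma), so it does not describe the 6 as a group. The sum of 6 vascular markers, 13.4 to 14.03 with LDL and 14.1 to 14.7 with saline, was likewise 96.9% to 97.5% Kdr (log2 fold change -0.0717, adjusted p = 0.905 in limma), and 3 of the 6 were above background on no array. The sum of 8 oligodendrocyte markers overlapped, at 34.9 to 36.5 with LDL and 35.8 to 38.4 with saline, as did the sums of the precursor, neuron and microglia markers. Such sums add probes that share no scale and lean on the brightest. The call of Gfap depended on the fit, since 0 features passed as higher with no background filter. The part of these markers in the results below was not tested. In RNA from whole cultures, fewer cells of a type and less RNA per cell cannot be told apart.

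Fatty acids leave fatty acid synthase mainly as palmitate, a saturated chain. Elovl6 lengthens palmitate to stearate, and the stearoyl-CoA desaturases place the first double bond in these chains, which gives the monounsaturated palmitoleate and oleate. The polyunsaturated route starts instead from the essential fatty acids of the diet: Fads2 and Fads1 add double bonds and Elovl5 and Elovl2 add carbons, giving arachidonate and docosahexaenoate, which are abundant in brain membranes. Elovl1 and Elovl4 make chains of very great length. The SREBP transcription factors, which the cell activates when sterols are low, are known to act on many of these genes.

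With LDL, 2 of the 9 genes measured fell and 0 rose at an adjusted p of 0.05 in limma. Both, Scd1 and Elovl6, belong to the monounsaturated route. Scd2 of the same route and the polyunsaturated genes had smaller negative values that did not pass the test. Over all features 0.107% passed in the falling direction and 0.0124% in the rising direction. The values of the LDL arrays all lay below those of the saline arrays for 6 of the 9 genes, against 8.77% of all features, and above them for none, against 5.82%. At an unadjusted p of 0.05 in limma, 7 of the 9 were lower and 0 higher, against 4.5% and 2.96% of all features. The median log2 fold change of the 9 genes was -0.54, that of all features -0.0263.

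**Figure D1:**
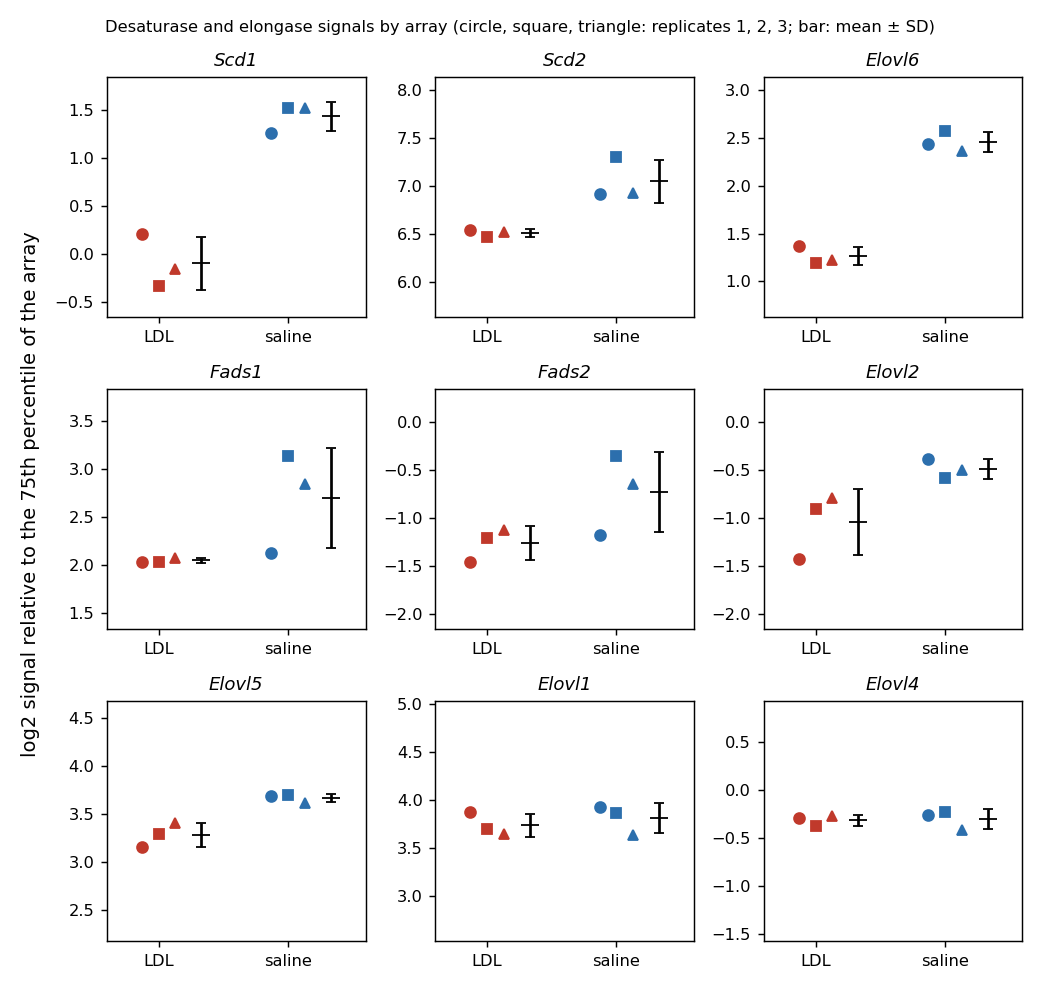
Log2 signal over the array's 75th percentile for the 9 genes measured, with each LDL array (red) and each saline array (blue) as a point and the mean ± SD of 3 arrays as a bar. All panels span the same range of log2 units. Scd1 and Elovl6 have the widest gaps between the groups, and Elovl1 and Elovl4 overlap.

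Scd1, a stearoyl-CoA desaturase, had 0.20, -0.34 and -0.16 on the 3 LDL arrays (replicates 1 to 3), against 1.26, 1.52 and 1.52 on the saline arrays. The lowest saline array stood 1.06 above the highest LDL array. Scd1 averaged -0.10 ± 0.28 with LDL and 1.43 ± 0.15 with saline (SD, n = 3 each). The signal was 65.4% lower. The log2 fold change was -1.53 with SE 0.16 and a 95% interval from -1.92 to -1.14 (adjusted p = 0.0346 in limma). Only 0.0784% of all features had a value as low or lower.

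Elovl6, the elongase that turns palmitate into stearate, had 1.37, 1.20 and 1.23 with LDL, against 2.44, 2.57 and 2.36 with saline. The groups lay 0.99 apart at their nearest arrays, and the spread within each was small, with means of 1.27 ± 0.0932 with LDL and 2.46 ± 0.10 with saline (SD, n = 3 each). The signal was 56.2% lower, and the log2 fold change was -1.19 with SE 0.11 and a 95% interval from -1.44 to -0.94 (adjusted p = 0.0154 in limma).

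Both calls depended on the fit, while the sizes moved little. With replicate number as a block, adjusted p in limma was 0.159 for Scd1 and 0.115 for Elovl6. With slide row as a block it was 0.110 for Scd1 and 0.0594 for Elovl6, and with no background filter 0.223 for Scd1 and 0.130 for Elovl6, so neither passed in these 3 fits. With 1 array left out, Scd1 passed only without LDL replicate 1 (adjusted p = 0.0404 in limma) and Elovl6 only without saline replicate 1 (adjusted p = 0.0485 in limma), but the log2 fold changes stayed between -1.68 and -1.41 for Scd1 and between -1.24 and -1.14 for Elovl6. The arrays of 1 slide lay in 2 rows, each holding both groups. Row 1 held replicates 1 and 2, and row 2 held replicate 3. Row and replicate number therefore cannot be told apart as separate checks. Within row 1, with 2 arrays a group, Scd1 had -1.46 and Elovl6 -1.22, and within row 2, with 1 array a group, -1.68 and -1.13.

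Scd2, the stearoyl-CoA desaturase known as the main form in mouse brain, differed less than Scd1. It had 6.55, 6.47 and 6.52 with LDL, against 6.92, 7.31 and 6.92 with saline. The groups did not overlap and the LDL arrays were close together, but saline replicate 2 stood above the other saline arrays. The log2 fold change was -0.54 (SE 0.13, 95% interval -0.85 to -0.23) and did not pass (adjusted p = 0.422 in limma). It was -0.41 without saline replicate 2. No spot of the Scd2 probe was saturated on any array.

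The difference between the responses of Scd1 and Scd2, taken within each array, was -0.99 on the log2 scale, and its LDL and saline values did not overlap. In an exact permutation test (two-sided) it had p = 0.1, the smallest that 3 arrays against 3 allow. It was 1 of 3 pairs compared, chosen with their values known, and the p adjusted over the 3 was 0.15. Elovl6 against Elovl5 gave a difference of -0.81 with the same p. For Fads1 against Fads2 it was -0.12 (exact permutation p = 0.4, adjusted 0.4). On chromosome 19, Scd1 and Scd2 lie in a row with Scd3 and Scd4. Without the probe sequences, which were not used here, signal from one of these similar genes on another's probe cannot be told apart. Scd3 had a log2 fold change of -0.16 (adjusted p = 0.94) and Scd4 of 0.49 (adjusted p = 0.546 in limma), and the Scd4 values of the LDL arrays all lay above those of the saline arrays.

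**Figure D2:**
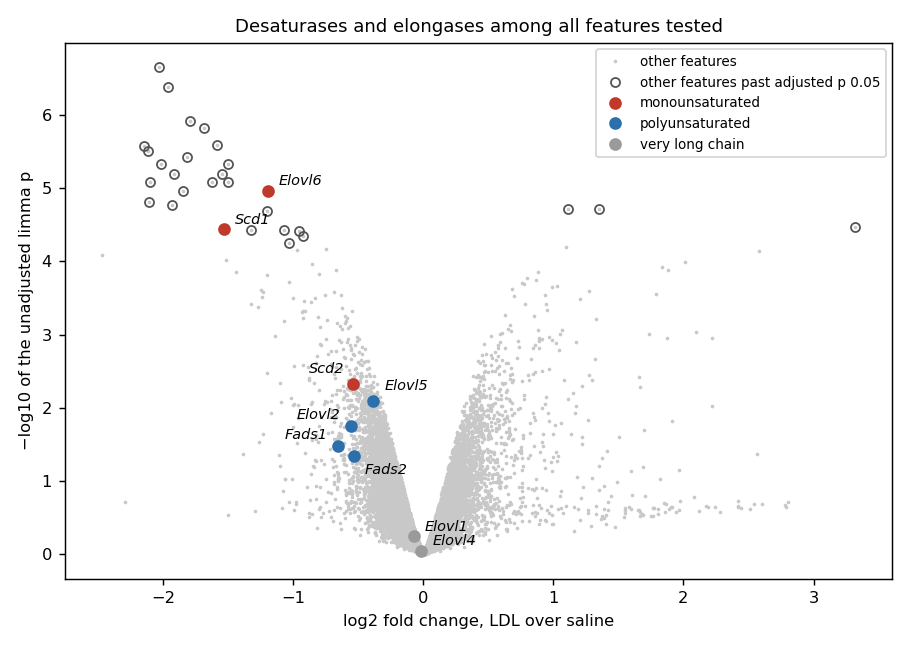
Log2 fold change of LDL over saline (x axis) against -log10 of the unadjusted limma p (y axis) for all 24225 features, with the desaturases and elongases in colour by route. Scd1 and Elovl6 stand among the features past an adjusted p of 0.05, Scd2 and the polyunsaturated genes lie lower on the left flank, and Elovl1 and Elovl4 lie near 0.

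The polyunsaturated route was represented by Fads1, Fads2, Elovl2 and Elovl5, none of which passed. All 4 were lower at an unadjusted p of 0.05 in limma, as were 4.5% of all features. Their log2 fold changes ran from -0.65 to -0.38 with adjusted p between 0.494 and 0.656 in limma. Fads1, the delta-5 desaturase, had 2.03, 2.03 and 2.07 with LDL, against 2.12, 3.13 and 2.84 with saline. The LDL arrays were nearly equal, while saline replicate 1 was only 0.0463 above the highest of them and the other saline arrays were well above. The log2 fold change of Fads1 was -0.65 (95% interval -1.23 to -0.0688). It was -0.94 when saline replicate 1 was left out and -0.43 when saline replicate 2 was.

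Fads2, the delta-6 desaturase that begins the route, had -1.46, -1.21 and -1.13 with LDL, against -1.19, -0.36 and -0.65 with saline. Here saline replicate 1 lay among the LDL arrays, so the groups overlapped. The log2 fold change was -0.53 (95% interval -1.05 to -0.0168), or -0.76 when saline replicate 1 was left out and -0.35 when saline replicate 2 was.

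Fads1 and Fads2, which neighbour each other on chromosome 19, had the same order over the saline arrays, lowest on replicate 1 and highest on replicate 2. The same order was seen for Hsd17b12, the ketoacyl-CoA reductase of the elongation cycle, which had 2.22, 2.07 and 2.10 with LDL, against 2.05, 2.81 and 2.57 on saline replicates 1 to 3. Tecr, the reductase of the last step of that cycle, had 2.64, 2.50 and 2.54 with LDL, against 2.49, 3.11 and 2.91 with saline. For these 4 genes the saline arrays spread more widely than the LDL arrays, and saline replicate 1 lay near, within or below the LDL values. Of the other partners of the cycle, Hacd2 had the saline order of Fads1 too (1.80, 2.05 and 1.91). Hacd4, above background on 1 saline array only, had the reverse (-4.42, -6.50 and -5.45). Hacd1 and Hacd3 were lowest on saline replicate 3. The share of all features with the order of Fads1 and Fads2 was not counted. Saline replicate 2 also had the smallest share of probes well above background, at 55.9%.

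Elovl2, which lengthens the chains that lead to docosahexaenoate, had -1.43, -0.90 and -0.79 with LDL, against -0.38, -0.59 and -0.50 with saline. Its groups did not overlap, and LDL replicate 1 was lower than the other LDL arrays. The log2 fold change was -0.55 (95% interval -0.98 to -0.13), and -0.36 without LDL replicate 1. Elovl5, the elongase shared by both families of essential fatty acids, had 3.16, 3.30 and 3.41 with LDL, against 3.69, 3.70 and 3.62 with saline. The saline arrays were close together and all above the LDL arrays. Its log2 fold change of -0.38 (95% interval -0.63 to -0.14) corresponds to a signal 23.2% lower.

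Promoters of 7 of the 10 members were in the RefSeq promoter table of build GRCm38.p6, which spans 250 bases before to 50 bases after each start. Scd1, Scd2 and Fads1 had no entry. The promoter of Elovl6, which fell, is shown beside those of Elovl5 and Fads2, whose smaller differences did not pass, with matches to the motifs searched in capitals, all 5′ to 3′ on the gene's strand. They lie at chr3:129532136-129532435 (plus strand), chr9:77917115-77917414 (plus strand) and chr19:10101454-10101753 (minus strand).
Elovl6: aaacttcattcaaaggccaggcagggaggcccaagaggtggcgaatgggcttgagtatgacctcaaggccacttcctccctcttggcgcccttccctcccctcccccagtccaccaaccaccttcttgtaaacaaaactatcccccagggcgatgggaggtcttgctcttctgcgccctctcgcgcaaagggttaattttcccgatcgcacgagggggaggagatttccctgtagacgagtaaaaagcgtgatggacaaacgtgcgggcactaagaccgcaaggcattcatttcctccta
Elovl5: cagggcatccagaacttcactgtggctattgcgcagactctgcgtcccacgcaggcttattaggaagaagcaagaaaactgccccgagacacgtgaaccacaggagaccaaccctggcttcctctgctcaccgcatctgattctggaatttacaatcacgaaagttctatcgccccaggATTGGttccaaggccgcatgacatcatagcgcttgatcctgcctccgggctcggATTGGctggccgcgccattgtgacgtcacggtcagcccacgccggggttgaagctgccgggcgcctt
Fads2: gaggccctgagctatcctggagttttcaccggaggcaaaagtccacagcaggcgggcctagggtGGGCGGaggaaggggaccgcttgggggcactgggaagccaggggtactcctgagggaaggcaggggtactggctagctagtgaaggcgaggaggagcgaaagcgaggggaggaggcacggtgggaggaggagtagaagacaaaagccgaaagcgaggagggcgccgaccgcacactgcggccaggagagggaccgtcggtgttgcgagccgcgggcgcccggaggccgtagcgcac

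The motifs searched on both strands were the sterol regulatory element of the LDL receptor type, the CCAAT box, CCAAT, and the GC box, GGGCGG. None of the 3 was found in the Elovl6 window. The Elovl5 window holds 2 CCAAT boxes, both on the opposite strand, and the Fads2 window holds 1 GC box. No motifs overlap in these 3 windows. The sterol regulatory element was in 0 of the 9 member promoters, which cover 7 genes, and in 0.712% of the 32851 promoters of the table. The CCAAT box was in 4 of the 9 and in 37.4% of all, and the GC box in 6 of the 9 and in 35.7% of all. A missing match says only that these letters are not in this window.

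As routes, the monounsaturated genes Scd1, Scd2 and Elovl6 had a median log2 fold change of -1.19, and the 4 polyunsaturated genes -0.54. The first median is the value of Elovl6 itself. Scd2, at -0.54, was less negative than Fads1 at -0.65 and Elovl2 at -0.55, so the difference between the routes came from Scd1 and Elovl6. Averaged over its genes and set against the saline mean, the monounsaturated route stood at -0.94, -1.20 and -1.12 on the LDL arrays, against -0.11, 0.15 and -0.0436 on the saline arrays. The polyunsaturated route stood at -0.71, -0.48 and -0.40 on the LDL arrays, against -0.23, 0.19 and 0.0412 on the saline arrays. In both routes every LDL array was below every saline array. The monounsaturated minus the polyunsaturated value was -0.23, -0.72 and -0.72 on the LDL arrays, against 0.12, -0.0354 and -0.0847 on the saline arrays. LDL replicate 1 had the smallest difference between routes, with the least negative monounsaturated and the most negative polyunsaturated value. Within slide row 1 the route medians were -1.22 and -0.58, and within row 2 they were -1.13 and -0.39, monounsaturated first. These values describe the members chosen and were given no test.

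**Figure D3:**
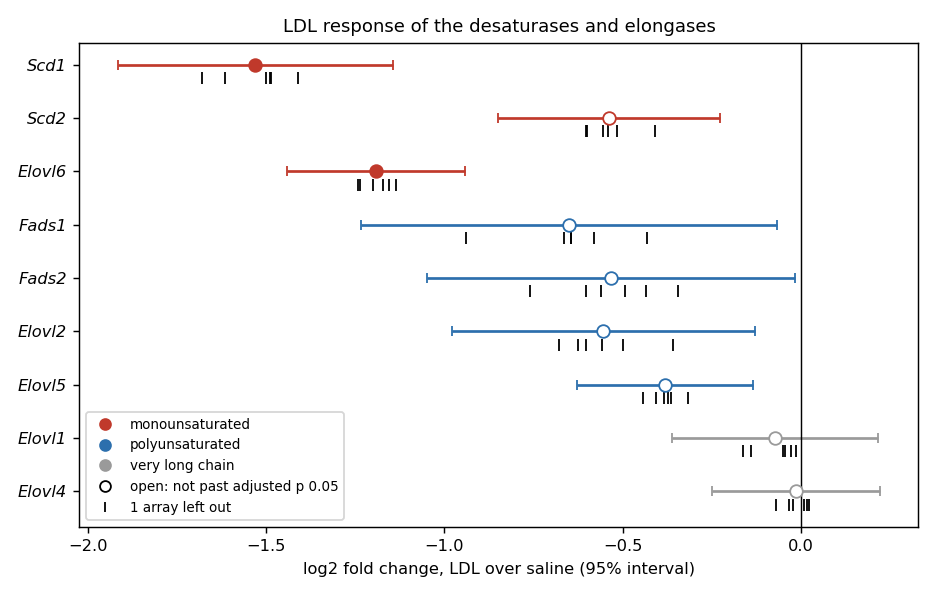
Log2 fold change of LDL over saline with its 95% interval for the 9 genes measured, coloured by route, with filled circles for genes past an adjusted p of 0.05. Black ticks under each gene are its values with 1 array left out. The ticks of Scd1 and Elovl6 stay near their circles, and those of Fads1 spread from -0.94 to -0.43.

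Values of the very long chain elongases overlapped between the groups. Elovl1, which acts on saturated and monounsaturated chains, had 3.87, 3.69 and 3.64 with LDL, against 3.93, 3.87 and 3.63 with saline. Elovl4, the elongase of the longest chains, had -0.30, -0.38 and -0.27 with LDL, against -0.26, -0.23 and -0.42 with saline. Both had small differences, with log2 fold changes of -0.0737 (95% interval -0.36 to 0.21, adjusted p = 0.934 in limma) for Elovl1 and -0.0135 (95% interval -0.25 to 0.22, adjusted p = 0.987 in limma) for Elovl4. Each has a second, dimmer probe. These had differences of 0.0553 for Elovl1 and 0.19 for Elovl4, and in a test of single probes neither probe of either gene passed. The sign of Elovl4 turned with the scaling and with the array left out, between -0.0922 and 0.0874 over the 19 settings fitted. Within slide row 2, with 1 array a group, Elovl1 had 0.0122 and Elovl4 0.144.

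Fads3, a relative of the front-end desaturases that acts on sphingoid bases, had -5.46, -4.72 and -4.98 with LDL, against -5.38, -5.59 and -5.63 with saline. Its probe was well above background on LDL replicates 2 and 3 and on no saline array. LDL replicate 1 lay below saline replicate 1, so the groups overlapped. It was not tested, and no fold is given.

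Among 14931 named features, the array patterns most like that of Scd1 were those of Fdft1, Lss and Stard4. Likeness was the root mean square difference over the 6 arrays between log2 values centred on each gene's mean, 0.119 for Fdft1, 0.133 for Lss and 0.133 for Stard4. Fdft1 is squalene synthase, Lss is lanosterol synthase and Stard4 carries cholesterol between membranes. Fdft1 had a log2 fold change of -1.44 and did not pass (adjusted p = 0.0798 in limma). Lss at -1.55 (adjusted p = 0.013) and Stard4 at -1.50 (adjusted p = 0.0135 in limma) fell. Their calls depended on the fit, since 0 features passed with no background filter. Fdft1, Lss and Stard4 were picked by their values on the same arrays, so a drop like that of Scd1 was fixed by the search. Elovl6 was the 8th most like, at 0.223, and Scd2 the 82nd, at 0.527. For Fads2 the nearest were Syn2 at 0.0618, H2ac21 at 0.0821 and Slc14a2 at 0.0856, none of which passed, and Fads1 was the 17th, at 0.125.

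The supply of saturated chains was read from 6 genes, of which 5 were measured and 0 passed, with a median of -0.34. At an unadjusted p of 0.05 in limma, 4 were lower and 1 was higher, against 4.5% and 2.96% of all features. Fasn, the synthase that makes palmitate, had -1.53, -1.55 and -1.44 with LDL, against -0.76, -0.70 and -0.50 with saline, a log2 fold change of -0.85 (adjusted p = 0.0706 in limma). Acly, which makes cytosolic acetyl-CoA from citrate, had -0.52 (adjusted p = 0.358 in limma). Me1, a source of the NADPH that fatty acid synthesis uses, had the opposite sign, at 0.63 (adjusted p = 0.526 in limma).

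Of 10 regulators, all measured, 2 fell, 0 rose and the median was -0.0357, where 0.107% of all features fell and 0.0124% rose. Srebf1, which encodes the SREBP1 factors of fatty acid synthesis, had -1.75, -1.41 and -1.50 with LDL, against -0.33, -0.0230 and -0.36 with saline. Its log2 fold change was -1.32 (adjusted p = 0.0346 in limma). Insig1, which holds the SREBP complex in the endoplasmic reticulum, had -2.25, -2.61 and -2.63 with LDL, against -0.70, -0.31 and -0.43 with saline, a log2 fold change of -2.02 (adjusted p = 0.0114 in limma). The LDL and saline arrays did not overlap for either gene. Their calls also depended on the fit. With no background filter, and in slide row 1 alone, 0 features of the array passed. With replicate number as a block, only 1 feature passed as lower. Nr1h3, a liver X receptor, had -0.34 (adjusted p = 0.746 in limma). Mbtps1, a protease that releases the SREBP factors, had -0.18 (adjusted p = 0.773 in limma). Neither passed.

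None of the partners of the desaturases and elongases passed the test in limma. Of 6 cytochrome b5 and b5 reductase genes listed as electron donors, 0 passed and 2 were higher at an unadjusted p of 0.05. All 6 had positive values, with a median of 0.19. Whether each of them serves these desaturases was not tested. Cyb5a had 0.21 (adjusted p = 0.849 in limma) and Cyb5r3 had 0.14 (adjusted p = 0.856 in limma), and both overlapped between the groups. Over all features 2.96% were higher at that p and 10607 of 24225 were positive, and 4 of the 6 listed genes overlapped between the groups. The cytochrome b5 reductase genes Cyb5r1 and Cyb5r2 had LDL arrays all above the saline arrays, as had 5.82% of all features. Their log2 fold changes were 0.94 and 0.43 (adjusted p = 0.494 for both in limma). Cyb5r1 had 2.43, 1.75 and 1.63 with LDL, against 1.35, 1.01 and 0.64 with saline. Of 6 partners of the elongation cycle, 0 passed, adjusted or unadjusted, and 3 were negative, with a median of -0.0522. Hacd2, a dehydratase of that cycle, had 0.25 (adjusted p = 0.685 in limma).

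Among 7 other genes of these families, 4 were measured, 0 passed and 1, Scd4, was higher at an unadjusted p of 0.05 (2.96% of all features), with a median of 0.0270. Elovl3 and Fads6 were above background on 2 arrays of each group and Degs2 on none, so they were not tested. Elovl7, an elongase of saturated chains, had -0.30 (adjusted p = 0.67 in limma). The 5 measured of 6 genes for peroxisomal chain shortening, the last step to docosahexaenoate, had a median of 0.11 and 0 passed, adjusted or unadjusted. Acaa1a, a thiolase of that pathway, had 0.18 (adjusted p = 0.79 in limma).

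**Figure D4:**
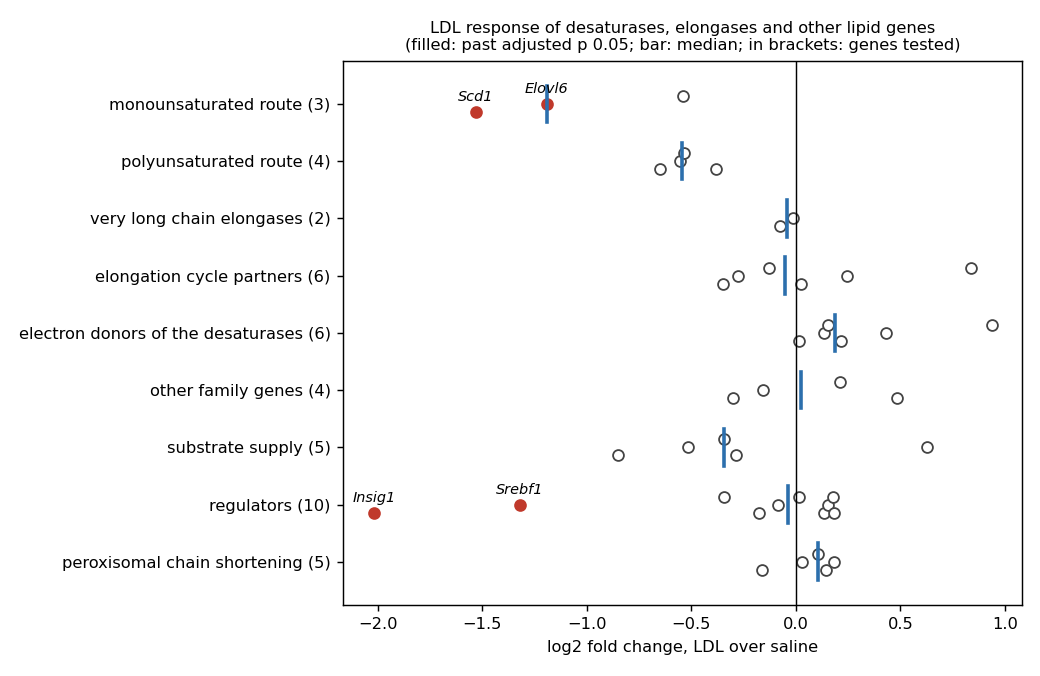
Log2 fold change of LDL over saline for each gene tested, by route or list, with red points for genes past an adjusted p of 0.05 and a blue bar for the median. Cell type markers are not plotted. Of the genes plotted, Scd1, Elovl6, Srebf1 and Insig1 passed, all negative. The 6 genes listed as electron donors, none of which passed, have positive values.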

How the data were processed

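Total RNA (100 ng) was labelled with Cy3 and hybridized, per the labels' protocols. The deposited scanner values are intensity values, background-subtracted and detrended per array by Agilent Feature Extraction 10.7.3.1, per the file headers. The authors also deposited log2 values, aligned between arrays by a method not given in the sources used here. The submitters' processing notes list R 3.4.4 and limma 3.34.9.

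Log2 processed signals were scaled to the 75th percentile of each array. Control and outlier spots were left out (61 features had an array with all spots flagged and kept the value), and spots of a probe were averaged. A probe was tested if at least 50% of its spots were well above background on all 3 arrays of a group (32993 probes). Of 55681 probes, 28331 were named through RefSeq accessions (GRCm38.p6), and each gene was read from its brightest probe on average. LDL over saline was fitted with lmFit and eBayes of limma 3.58.1 (R 4.3.3), two-sided and without covariates, and Benjamini-Hochberg adjusted over 24225 features. The fit was also run on simulated data, drawn independently for each feature and array. Such data hold no effect shared by a passage or slide row, so they cannot address the dependence on blocks. Members, lists, pairs and motifs were chosen with earlier results of these data known. Named genes were the members, list genes past the threshold or with the smallest p of a list (up to 2), and the 3 nearest patterns. Tecr, Me1, Scd3, Hacd1, Hacd3, Hacd4, Cyb5a and Cyb5r3 were named after their values were seen. One gene that the rule names is not reported here. The normexp alternative used median spot signals. The number of arrays limits the precision.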

Additional observations from a re-analysis of the deposited data

How the results depend on the processing

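The 9 genes measured, except Elovl4, kept a negative log2 fold change in each of the 19 settings fitted. In slide row 2 alone, with 1 array a group and no fit, Elovl1 had 0.0122 and Elovl4 0.144. Scd1 passed in limma in 10 of the 19 (adjusted p from 0.00534 to 0.999) and Elovl6 in 9 (0.00161 to 0.607), and none of the other 7 passed in any. Members lower numbered 1 with median scaling, where Elovl6 had adjusted p = 0.068 in limma, and 0 when no background filter was used, with the replicate block, with a slide row block or in slide row 1 alone. Leaving out 1 array gave 0 to 1. Elovl4 reversed to 0.0255 with median scaling and 0.0874 with the mean over probes, and ran from -0.0708 to 0.0228 with 1 array left out. The route medians, slide row 2 alone included, moved by less than the spread between replicates. They ran from -1.24 to -1.13 (monounsaturated) and from -0.63 to -0.39 (polyunsaturated).

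Of all features, 26 were lower and 3 higher. Lower features numbered 1 with the replicate block, 14 with a slide row block, 0 when no filter was used and 0 in slide row 1 alone, and 0 to 23 with 1 array left out. Higher features numbered 8 under normexp plus quantile scaling, 5 under quantile scaling alone, 8 under median scaling, 7 in the authors' processed values, 5 when probes had to be above background on all arrays, 16 under trended robust variances and 6 with flagged values missing, which was added after seeing the data. They numbered 0 when no filter was used, with a slide row block, and in slide row 1 alone, and 0 to 6 with 1 array left out. Where limma called 0 in both directions, 1773 features (no filter) and 862 features (slide row 1) had an unadjusted p under 0.05, as did 991 (LDL replicate 2 left out), 1375 (LDL replicate 3 left out) and 1554 (saline replicate 3 left out). Blocks and fewer arrays leave fewer degrees of freedom. Without the filter, 36717 features entered both the fit and the adjustment. Why the counts changed was not tested in any setting.

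The replicate block leaves fold changes as they are (adjusted p = 0.159 for Scd1 and 0.115 for Elovl6 in limma). Deviations of same-numbered LDL and saline arrays correlated at 0.215, -0.0428 and 0.178. Those of arrays with different numbers correlated at -0.226 to 0.0806. These values do not settle whether the arrays are paired. Same-numbered arrays lay side by side on the slide, and the 3 experiments used different passages. If a replicate number marks 1 experiment, the replicate block is the fit that follows the design. The main fit used no pairing, and with the block no member passed. Signal over background limits Fads3.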
